A study of Mus musculus with 15 samples.

Results

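Mitochondrial DNA encodes 37 genes in the mouse, and the transcripts of these genes were followed here through cerebellum RNA of 15 libraries. Members were chosen by symbol alone: each gene of the deposited table whose symbol begins with mt- was taken, which gave 37 of 55488 table rows. They are 13 protein genes, 2 rRNA genes and 22 tRNA genes. Per its design text, the study asked whether mPPL-001 therapy is neuroprotective. YG8JR mice model Friedreich ataxia: a human transgene with an expanded GAA repeat stands in for the missing mouse gene, and all groups but the wild type carry it. In the mPPL-001 group (n = 5) YG8JR recipients had been given Sca1+ blood stem and progenitor cells (HSPCs). These came from marrow of other YG8JR mice and had been electroporated with SpyFi Cas9 and the guides UP4 and DN4. The mock group (n = 4) had received YG8JR HSPCs electroporated with both guides but no Cas9. Recipients of both groups were 2.5 to 3.0 months old, were irradiated with 7 Gy a day earlier and drank sulphamethoxazole and trimethoprim for 1 month. Untreated YG8JR mice (n = 3) and wild-type (WT) mice (n = 3) had no transplant, irradiation or antibiotic stated in the labels, and tissue of every group is labelled 6 months after transplant. The share of graft-derived cells in the tissue is not given in the labels. The labels do not state that each library is a separate animal; p-values here refer to the spread among libraries, which may in part be technical. By the Y-linked transcripts given with the depths, the mock, untreated YG8JR and WT groups each held more than 1 animal.

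Mitochondrial DNA is transcribed from both strands into long precursors. The precursors are cut, largely at the tRNAs that lie between the other genes, into mRNAs, rRNAs and tRNAs. The proteins made from them are core subunits of respiratory complexes I, III, IV and V, and the rRNAs and tRNAs serve the ribosome inside the mitochondrion that makes those proteins. In Friedreich ataxia the protein that is short helps to build iron-sulphur clusters, cofactors that complexes I to III need. Cerebellar tissue is rich in mitochondria and belongs to the tissues affected in the disease.

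Libraries held 16847875 to 38760543 counts, in batches labelled A (8 libraries) and B (7 libraries). Cerebellar neuron markers were low in most batch A libraries, against the label of cerebellum. By edgeR's quasi-likelihood test with Benjamini-Hochberg adjustment, 15 of 15 granule neuron markers and 12 of 13 Purkinje cell markers were lower in batch A than in batch B, and 12 of 13 brainstem neuron markers were higher, where 32.9% of all genes differed. Of all genes, 14.9% were higher and 18.0% lower in batch A. The granule neuron markers summed to 535 to 1576 CPM (counts scaled to library size) in batch A and 3767 to 7918 CPM in batch B. Purkinje cell markers summed to 508 to 5601 CPM in batch A and 4861 to 19249 CPM in batch B, which overlapped. The granule neuron gene Gabra6 and the Purkinje cell gene Pcp2 were at 71.9 and 24.4 CPM in mPPL-001 replicate 3, of batch A, while Pcp2 was at 21.2 CPM in WT replicate 2, of batch B. No granule or Purkinje marker was at 0 in any library, and up to 6 brainstem markers were at 0 in a library of batch B. Fewer cells of a type and less RNA per cell cannot be told apart in such bulk tissue. Each group had libraries in both batches, and batch was a term in every gene test. Batch A held 1 WT library, the library labelled WT replicate 3, and batch B held 1 untreated YG8JR library. Directions drawn from WT carry a doubt about that library, whose mt- share lay among those of YG8JR, and are therefore given with and without it. Since that doubt comes from the mt- values, larger differences without the library follow from the choice and nothing is read from them. Values without WT replicate 2 stand beside many of them. Members that did not overlap between groups were not counted without WT replicate 2, so those counts lack this counterpart. The libraries also differed in Y-linked transcripts: Ddx3y, Uty, Kdm5d and Eif2s3y together reached at least 198 CPM in 10 libraries, but 1.63 and 1.00 CPM in mock replicates 1 and 4, and 0.0350 to 0.0586 CPM in untreated YG8JR replicate 3 and the first and second WT libraries.

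Of the 22 tRNA genes, 14 had no count in any library. A count of 0 allows a level of up to 0.00641 CPM over the 468170719 counts of all libraries, for counting error only. How well these libraries recover RNAs as short as a tRNA was not tested, so tRNA counts do not give abundance in the tissue. Another 7 had between 1 and 14 counts summed over the 15 libraries. The exception was mt-Tp, the tRNA for proline, with 24895 counts, or 99.8% of all tRNA counts. It had 74.8, 57.8, 55.9, 50.0 and 43.6 CPM in mPPL-001, 51.3, 53.0, 57.9 and 59.0 CPM in mock, 53.4, 56.5 and 54.1 CPM in untreated YG8JR, and 43.0, 19.7 and 62.5 CPM in WT libraries. The lowest value was that of WT replicate 2 and the groups overlapped. It is encoded on the light strand, like 7 other tRNA genes, and is the last gene of the map. The sequences of mt-Tp and of mt-Te, the light-strand tRNA for glutamate that had 8 counts in all, are shown because genes of nearly equal length (67 and 69 bases) on the same strand differed so far in counts; mt-Te was chosen after its values were seen. No 31-base stretch of either occurs in another annotated transcript. They are printed 5′ to 3′ in lower case, from GENCODE M21 transcripts of the GRCm38 build.
mt-Tp: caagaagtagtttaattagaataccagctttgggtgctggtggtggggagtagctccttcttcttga
mt-Te: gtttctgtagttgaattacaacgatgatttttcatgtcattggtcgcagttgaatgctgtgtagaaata

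Levels of the protein genes spanned a wide range per unit of length, though they arise from shared precursors. On the scale of CPM per kilobase of gene, mt-Co1, the catalytic subunit of complex IV, had a median level of 9340 over the 15 libraries. It took 53.0% of all protein-gene counts. Next came mt-Nd1 (3177 CPM per kb) and mt-Cytb (2958 CPM per kb), the complex III subunit cytochrome b, then the complex I subunits mt-Nd2 (1762), mt-Nd4 (1562) and mt-Nd5 (1418). mt-Nd6, the complex I subunit and sole protein gene of the light strand, had 598 CPM per kb, mt-Rnr1 (the small-subunit 12S rRNA) 1068 and mt-Rnr2 (the large-subunit 16S rRNA) 524. Ribosomal RNA was depleted before library preparation, so these rRNA levels do not give abundance in the tissue. The remaining 6 protein genes were far lower: mt-Co2 (102 CPM per kb), mt-Co3 (82.6), mt-Atp6 (71.2), mt-Nd3 (49.8), mt-Atp8 (49.3) and mt-Nd4l (38). Together they made up 0.740% of the protein-gene counts.

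**Figure D1:**
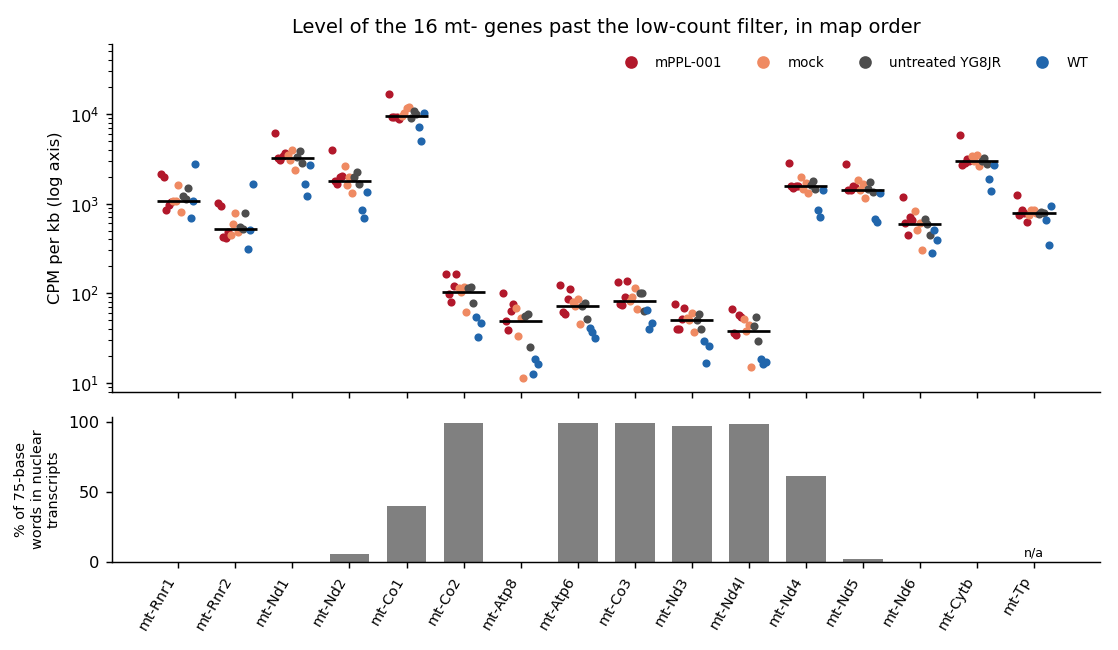
Level of the 16 mt- genes that passed the low-count filter, in map order, in CPM per kilobase on a log axis (top; 1 point per library coloured by group, bar at the median of 15 libraries), above the percent of each gene's 75-base words that also occur in an annotated nuclear transcript (bottom; mt-Tp is too short). The 5 genes above 97% have medians of 38 to 102 CPM per kb, as low as mt-Atp8 beside them, and the other 7 protein genes lie at 598 to 9340.

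The low genes lie next to each other on the map, and 5 of the 6 have a nearly identical copy among annotated nuclear transcripts. Of the 75-base words of mt-Co2, mt-Atp6, mt-Co3, mt-Nd3 and mt-Nd4l, 97.8% to 99.9% also occur in an annotated nuclear transcript. The corresponding share was 61.5% for mt-Nd4, 39.8% for mt-Co1, 5.71% for mt-Nd2, 1.66% for mt-Nd5 and 0 for mt-Nd1, mt-Nd6, mt-Cytb and both rRNAs. mt-Atp8 had 0 at this word length and 7.47% at 31 bases; nuclear sequence outside annotated transcripts was not searched. The 5 genes and parts of mt-Co1 and mt-Nd4 match 7 pseudogenes on chromosome 1, which carry the end of mt-Co1, these 5 genes and the start of mt-Nd4. Whether mt-Atp8, which lies between mt-Co2 and mt-Atp6, is copied there too was not tested. Gm28661 matches 681 bases of mt-Co2, Gm10925 678 bases of mt-Atp6, Gm28437 783 bases of mt-Co3 and Gm28439 876 bases of mt-Nd4, each without a difference. Gm28438 differs from mt-Nd3 at 1 of 345 bases, by T3C, where the base of the mitochondrial gene comes first and positions count from its first base. These copies were counted too. Gm10925 had 77422 counts over the 15 libraries against 21565 for mt-Atp6, Gm28437 had 58275 against 30948 for mt-Co3, and Gm28661 had 40635 against 30932 for mt-Co2. A copy took 49.2% (Gm28438, lowest library) to 79.7% (Gm10925, highest library) of the counts of its pair with the 5 genes, but 3.19% at most with mt-Nd4 and 1.45% at most with mt-Co1. With the copy's counts added, mt-Co2 stood at 231 CPM per kb and mt-Atp6 at 317, the highest of the 5, still below the 598 of mt-Nd6. How reads that map to several places were handled is not given in the sources used here, and its part in these levels was not tested.

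mt-Nd4l, a small membrane subunit of complex I, is shown whole because it had the lowest level per kb of the protein genes and because nearly every base is shared. Capitals mark the 294 of its 297 bases that are identical in Gm10222, as GENCODE M21 gives both on GRCm38. The lower-case bases at its end lie past the end of the annotated copy and were not compared. A second stretch, bases 994 to 1113 of mt-Co1, spans the first base of the annotated copy Gm29216 as aligned to the gene with the highest level. Its capitals mark bases identical in Gm29216, which aligns to bases 1054 to 1545 and differs there by T1056A, C1057T, A1059G, A1060G, C1062A and A1066T (the base of mt-Co1 first, positions from its first base).
mt-Nd4l: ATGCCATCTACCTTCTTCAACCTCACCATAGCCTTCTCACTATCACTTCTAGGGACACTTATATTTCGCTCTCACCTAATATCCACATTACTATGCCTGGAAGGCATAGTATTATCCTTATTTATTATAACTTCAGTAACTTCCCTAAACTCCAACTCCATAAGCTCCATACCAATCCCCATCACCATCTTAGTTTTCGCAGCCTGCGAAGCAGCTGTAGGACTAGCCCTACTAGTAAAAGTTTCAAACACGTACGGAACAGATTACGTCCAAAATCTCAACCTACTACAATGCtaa
mt-Co1 bases 994 to 1113: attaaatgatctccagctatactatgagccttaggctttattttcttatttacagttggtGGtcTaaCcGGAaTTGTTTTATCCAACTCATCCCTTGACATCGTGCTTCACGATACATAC

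The share of all counts that fell in mt- genes was 5.59%, 3.09%, 2.88%, 3.05% and 3.02% in mPPL-001, 3.28%, 3.08%, 3.62% and 3.08% in mock, 3.02%, 3.45% and 3.04% in untreated YG8JR, and 1.94%, 1.54% and 3.26% in WT libraries. Of the 12 YG8JR libraries, 11 therefore lay between 2.88% and 3.62%, with mPPL-001 replicate 1 above them and WT replicates 1 and 2 below. The third WT library, labelled replicate 3, stood inside the YG8JR range. Without the 2 rRNA genes its share was 2.75%, below all untreated YG8JR (2.78% at lowest) and mock libraries (2.89% at lowest). It was then still above mPPL-001 replicate 3 (2.74%). Wilson 95% intervals of the shares in all mt- genes were at most 0.0194 percentage points wide, so counting error was small beside the spread between libraries. Untreated YG8JR averaged 3.17 ± 0.24% and WT 2.25 ± 0.90% (SD, n = 3 each), a difference of 0.921 percentage points (two-sided exact permutation test, p = 0.3, where 0.1 is the smallest p that 3 against 3 allows). Within batch A the difference was -0.0176 points, between 2 untreated YG8JR libraries and the library labelled WT replicate 3. Within batch B it was 1.28 points, between 1 untreated YG8JR library and WT replicates 1 and 2. It was 0.5685 points without WT replicate 2 and 1.43 points without the library labelled WT replicate 3. With permutation within batches the exact p for untreated YG8JR against WT was 0.222. mPPL-001 averaged 3.52 ± 1.16% (SD, n = 5), 1.28 points above WT (exact p = 0.232), and mock 3.26 ± 0.25% (SD, n = 4), 1.01 points above WT (exact p = 0.0857). Neither passed. The difference of mPPL-001 from WT was 0.762 points without mPPL-001 replicate 1, and that of mock 0.662 points without WT replicate 2. Within batch A mPPL-001 exceeded the 1 WT library by 0.580 points and mock by 0.0874 points. Within batch B the differences from WT were 1.31 points for mPPL-001 and 1.44 points for mock. With permutation within batches the exact p was 0.167 for mPPL-001 and 0.111 for mock. The 3 YG8JR libraries low in Y-linked transcripts had 3.28% and 3.08% (mock) and 3.04% (untreated) of counts in mt- genes, and the WT libraries low in them 1.94% and 1.54%. Of these, the mock libraries had the higher Y-linked sums given above.

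**Figure D2:**
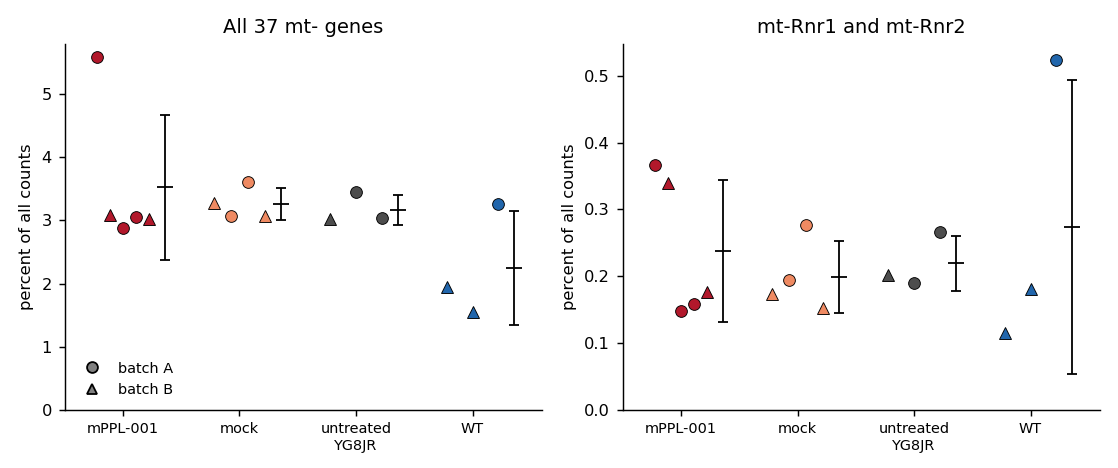
Percent of all counts in the 37 mt- genes (left) and in the 2 mitochondrial rRNA genes (right), 1 point per library (circles batch A, triangles batch B), with the group mean ± SD beside the points. WT replicates 1 and 2 are at 1.94% and 1.54% on the left, below all YG8JR libraries, and the library labelled WT replicate 3 has the highest rRNA share, 0.524%.

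Between groups of YG8JR mice the shares did not separate. mPPL-001 exceeded mock by 0.262 points (exact p = 0.984), but was 0.253 points lower without mPPL-001 replicate 1 (exact p = 0.0857). Its difference from untreated YG8JR was 0.356 points (exact p = 0.875) and -0.160 points without the same library. Mock exceeded untreated YG8JR by 0.0935 points (exact p = 0.571), and the difference was -0.0242 points without mock replicate 3. Adjusted over the 7 comparisons of shares, the lowest p was 0.3.

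Complex I transcripts were higher on average in untreated YG8JR than in WT cerebellum, but none passed the test over all genes. mt-Nd1, a membrane subunit at the ubiquinone site, had 3292, 3817 and 2789 CPM in untreated YG8JR libraries, against 1546, 992 and 2574 CPM in WT libraries. mt-Nd2 had 2158, 2407 and 1770.4 CPM in untreated YG8JR libraries, against 872.5, 606 and 1390.2 CPM in WT libraries. Neither gene's groups overlapped, and in both the library labelled WT replicate 3 was the highest of its group. The log2 fold changes were 0.91 (SE 0.30, adjusted p = 0.132, edgeR) for mt-Nd1 and 1.11 (SE 0.34, adjusted p = 0.129) for mt-Nd2. Those of the other members of complex I were 0.79 for mt-Nd4, 0.88 for mt-Nd5, 0.71 for mt-Nd6, 1.15 for mt-Nd3 and 1.41 for mt-Nd4l. The members mt-Nd2, mt-Nd4 and mt-Nd5 form the proton-pumping part of the membrane arm in the known structure.

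mt-Cytb, the only mitochondrially encoded subunit of complex III, had 3532, 3853 and 3236 CPM in untreated YG8JR libraries, against 2106, 1353 and 3026 CPM in WT libraries, again without overlap (log2 fold change 0.67, SE 0.28, edgeR adjusted p = 0.167). For complex IV, mt-Co1 had 14585, 17247 and 15704 CPM in untreated YG8JR libraries, against 10786, 6460.0 and 15479.8 CPM in WT libraries. Here the groups overlapped, because the library labelled WT replicate 3 exceeded untreated YG8JR replicate 1, and mt-Co1 had the smallest change of the 13 protein genes (0.49, SE 0.29, adjusted p = 0.29). mt-Co2, which takes electrons from cytochrome c, had 82.1, 83.0 and 54.9 CPM in untreated YG8JR libraries, against 36.3, 19.0 and 31.4 CPM in WT libraries. Its change was 1.36 (SE 0.31, adjusted p = 0.106), the lowest adjusted p of the members in this comparison. For mt-Co3, also of complex IV, the change was 0.95 (SE 0.29, adjusted p = 0.128). The subunits of ATP synthase (complex V) were mt-Atp6, of the proton channel, with 51.3, 54.8 and 36.3 CPM in untreated YG8JR libraries, against 27.4, 21.3 and 21.2 CPM in WT libraries, and mt-Atp8 with 11.9, 12.3 and 5.30 CPM in untreated YG8JR libraries, against 2.55, 3.17 and 3.30 CPM in WT libraries. Neither overlapped, and the log2 fold changes were 1.05 (SE 0.28, adjusted p = 0.118) for mt-Atp6 and 1.72 (SE 0.52, adjusted p = 0.127) for mt-Atp8.

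**Figure D3:**
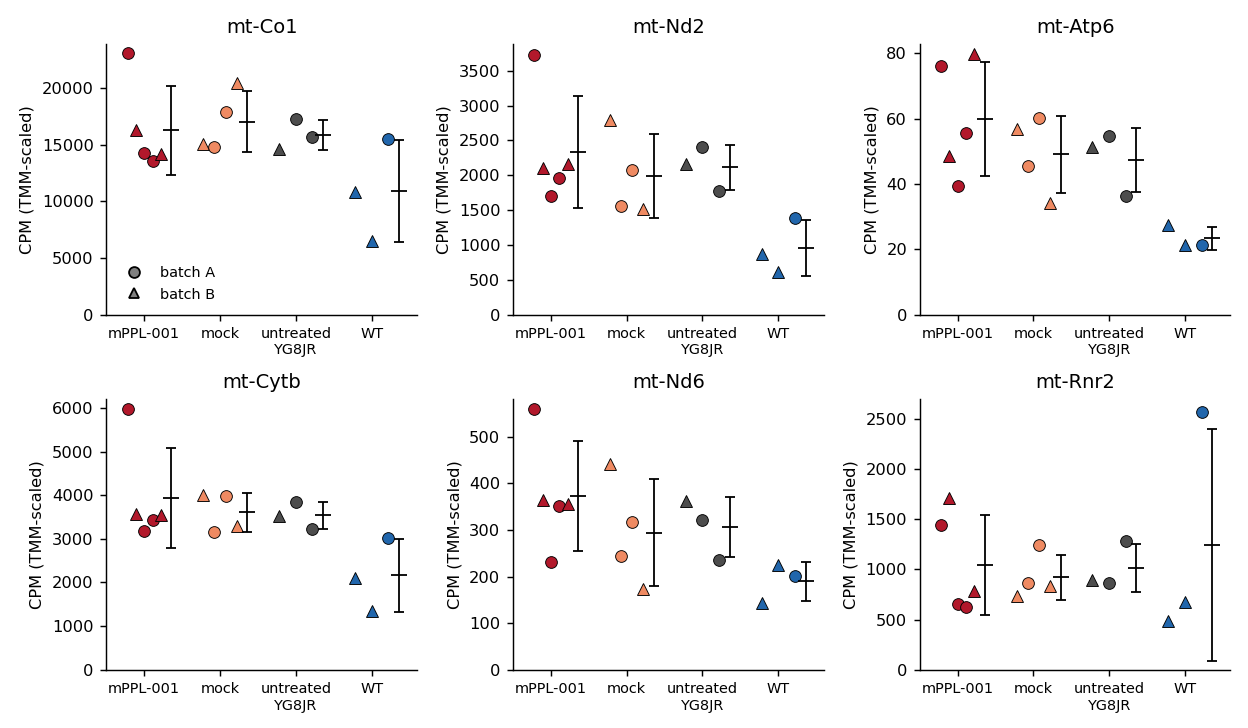
TMM-scaled CPM of 6 members in each library (circles batch A, triangles batch B), with the group mean ± SD beside the points. In mt-Atp6 the 3 WT libraries, at 21.2 to 27.4 CPM, lie below all 12 YG8JR libraries, while in mt-Co1 and mt-Rnr2 the library labelled WT replicate 3 stands with or above the YG8JR groups.

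Over the whole set, 13 of 13 protein genes were positive in untreated YG8JR against WT, with a median log2 fold change of 0.95 where the median of all 24990 genes tested was -0.04. None of the 16 members that passed the low-count filter was called by edgeR at an adjusted p under 0.05, where 0.144% of all genes were called. At an unadjusted p under 0.05 there were 11 members, against 25.3% of all genes, and DESeq2, the other tool run, called 10, against 8.86% of all genes. In 12 of the 16 members every untreated YG8JR library exceeded every WT library, which was so for 8.17% of all genes. The exceptions were mt-Co1, both rRNAs and mt-Tp. Without the library labelled WT replicate 3, edgeR called 8 members (mt-Nd1, mt-Nd2, mt-Nd3, mt-Nd4l, mt-Nd4, mt-Nd5, mt-Cytb and mt-Co2), where 15.8% of all genes in that fit were called. The median was then 1.26, and 16 of 16 members did not overlap (background 21.6%); the WT libraries left are then both of batch B. Without WT replicate 2 the median was 0.88 and edgeR called no member, where 0.144% of all genes were called.

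Marker lists stood as follows in the same libraries. Summed astrocyte markers stood at 7995 to 8883 CPM in untreated YG8JR and 3011 to 5479 CPM in WT libraries, with 9 of 9 positive, and microglial markers at 386 to 507 CPM in untreated YG8JR and 78.2 to 271 CPM in WT libraries, with 11 of 11 positive. Endothelial markers had 8 of 8 positive, at 346 to 487 CPM in untreated YG8JR and 135 to 320 CPM in WT libraries. Oligodendrocyte markers had 9 of 9 positive, with a median log2 fold change of 0.67, at 6773 to 12348 CPM in untreated YG8JR and 2640 to 12807 CPM in WT libraries. Of these 4 lists edgeR called 1 gene, a microglial one, while DESeq2 called higher 11 of 11 microglial, 7 of 9 astrocyte, 5 of 8 endothelial and 1 of 9 oligodendrocyte markers. Granule neuron markers had 15 of 15 negative, at 663 to 4036 CPM in untreated YG8JR and 1132 to 7918 CPM in WT libraries, and DESeq2 called 2 of them lower. Purkinje cell markers had 13 of 13 positive, at 708 to 17073 CPM in untreated YG8JR and 928 to 9477 CPM in WT libraries. Brainstem neuron markers had 11 of 13 positive, with a median of 1.62, at 216 to 1708 CPM in untreated YG8JR and 38.3 to 1000.3 CPM in WT libraries. WT replicate 2, with the lowest mt- share, also had the fewest counts and the lowest sum of cytosolic ribosomal protein genes, 2816 CPM, where the group of untreated YG8JR ran from 5214 to 6427 CPM. Nuclear long noncoding RNAs, which mark RNA kept in the nucleus, summed to 6645 to 12469 CPM in untreated YG8JR and 10145 to 23364 CPM in WT libraries, with 3 of 10 positive, a median of -0.68 and 2 called lower by DESeq2. The 23364 CPM were those of WT replicate 2, where Malat1 alone had 18131 CPM, the highest of the 15 libraries. Choroid plexus markers had 6 of 12 positive, at 426 to 1338 CPM in untreated YG8JR and 215 to 1554 CPM in WT libraries. Apart from 1 choroid plexus marker in some libraries and brainstem markers, of which 1 was at 0 in an untreated YG8JR library and up to 6 in a WT library, none of these cell type markers was at 0 in any library. The part of these differences in the mt- values was not tested. The median of the 13 protein genes was 0.59 within batch A, which holds 1 WT library, and 1.28 within batch B, which holds 1 untreated YG8JR library, and no member was called in either. In simulated counts of this design the test recovered 30% of genes changed by 1 on the log2 scale and 70% of those changed by 2.

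The library labelled WT replicate 3 did not lie with the YG8JR libraries in every member. It had 31.4 CPM for mt-Co2, 35.8 for mt-Co3, 21.2 for mt-Atp6, 8.9 for mt-Nd3, 5.1 for mt-Nd4l, 201 for mt-Nd6 and 3.30 for mt-Atp8. These were inside the range of the other WT libraries for mt-Co2, mt-Co3, mt-Nd3, mt-Nd4l and mt-Nd6. The value was below that range for mt-Atp6 and just above it for mt-Atp8. In mt-Nd1, mt-Nd2, mt-Nd4, mt-Nd5, mt-Cytb and mt-Co1 its value was above both other WT libraries. The ratio of complex V to complex I counts was accordingly lowest in it, at -8.43 on the log2 scale, where the other 14 libraries ran from -7.86 to -6.89. Of the genes named here, mt-Co2, mt-Co3, mt-Atp6, mt-Nd3 and mt-Nd4l have near-identical nuclear copies. The part of such copies in these values and in the ratio was not tested.

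The comparison of mPPL-001 with WT held the members that passed over all genes. mt-Co2 had 101, 77.2, 54.2, 77.4 and 117 CPM in mPPL-001 libraries, against 36.3, 19.0 and 31.4 CPM in WT libraries, and was higher in mPPL-001 (log2 fold change 1.57, SE 0.29, edgeR adjusted p = 0.0417). mt-Atp6 had 76.0, 48.7, 39.4, 55.5 and 79.9 CPM in mPPL-001 libraries, against 27.4, 21.3 and 21.2 CPM in WT libraries, and was also higher (1.38, SE 0.26, adjusted p = 0.0471). These 2 of 16 stood against a background of 0.216% of all genes called higher, 12 members had an unadjusted p under 0.05 (15.8% of all genes did), and DESeq2 called 11 (2.62% of all genes). Both calls are close to the threshold. No member was called without a batch term or in a fit of these 8 libraries alone. The number called ran from 0 to 10 when single libraries were left out, and most of these fits gave 0. It was 0 without any single untreated YG8JR library and without mock replicate 1, 2 or 3, though these groups are not the ones compared. It was also 0 without any single mPPL-001 library other than replicate 3. Leaving out mock replicate 4 gave 4. Leaving out WT replicate 1 or 2 gave 0 (0.113% of all genes without replicate 2), and leaving out the library labelled WT replicate 3 gave 10, where 6.93% of all genes were called. Within batch A, which rests on 1 WT library, and within batch B, the log2 fold changes were 1.29 and 1.83 for mt-Co2 and 1.42 and 1.42 for mt-Atp6, none of them called. The 13 protein genes were all positive, from 0.54 for mt-Co1 to 2.15 for mt-Atp8 (SE 0.49, adjusted p = 0.103), with a median of 1.11 against 0.02 for all genes. In 12 of the 16 members every mPPL-001 library exceeded every WT library, against 2.89% of all genes, and in 14 when the library labelled WT replicate 3 was left out (background 14.3%).

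Cell type markers stood as follows between mPPL-001 and WT. Astrocyte markers had 9 of 9 positive (median 0.75), at 5216 to 9219 CPM in mPPL-001 and 3011 to 5479 CPM in WT libraries. Endothelial markers had 8 of 8 positive (0.87), at 325 to 403 CPM in mPPL-001 and 135 to 320 CPM in WT libraries, and microglial markers 9 of 11 (0.39), at 242 to 367 CPM in mPPL-001 and 78.2 to 271 CPM in WT libraries. Purkinje cell markers had 13 of 13 positive (1.21), at 508 to 19249 CPM in mPPL-001 and 928 to 9477 CPM in WT libraries. Oligodendrocyte markers had 9 of 9, choroid plexus markers 10 of 12, brainstem markers 10 of 13 and granule neuron markers 3 of 15 positive. None of these was called by edgeR (at an unadjusted p under 0.05, 7 astrocyte, 6 endothelial, 5 microglial and 3 Purkinje cell markers were higher and 5 granule neuron markers lower), while DESeq2 called 4 of 9 astrocyte, 5 of 8 endothelial and 4 of 11 microglial markers higher and 1 granule neuron marker lower. Y-linked transcripts stood at 222 to 251 CPM in all mPPL-001 libraries and at 0.0350, 0.0503 and 251 CPM in the WT libraries. The part of these differences in the values of mt-Co2 and mt-Atp6 was not tested.

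Mock against WT gave 13 positive protein genes with a median of 0.94, and 0 of 16 members were called by edgeR where 0.412% of all genes were (12 members at an unadjusted p under 0.05, where 26.1% of all genes were, and 11 by DESeq2, where 10.6% were). The lowest adjusted p was that of mt-Co2 (1.26, SE 0.29, adjusted p = 0.0664). mt-Co2 had 81.3, 65.6, 81.4 and 46.3 CPM in mock libraries, each above the WT libraries. Mock and WT did not overlap in 6 members (background 5.88%), namely mt-Nd2, mt-Nd3, mt-Cytb, mt-Co2, mt-Co3 and mt-Atp6. When the library labelled WT replicate 3 was left out edgeR called 9, where 18.6% of all genes were called, and 12 members did not overlap (background 17.0%). Without WT replicate 2 the median was 0.79 and edgeR called 0, where 0.233% of all genes were called. The same 6 members were higher in each of the 12 YG8JR libraries than in each of the 3 WT libraries, against 1.49% of all genes; with WT replicates 1 and 2 alone there were 11 such members (background 9.79%). The 3 comparisons with WT share the WT libraries. Choroid plexus markers had 12 of 12 positive in mock against WT (median 2.14), at 391 to 6743 CPM in mock and 215 to 1554 CPM in WT libraries. Astrocyte markers had 9 of 9 positive (0.89), at 6475 to 9422 CPM in mock and 3011 to 5479 CPM in WT libraries, and endothelial markers 8 of 8 (0.90), at 332 to 468 CPM in mock and 135 to 320 CPM in WT libraries. Microglial markers had 11 of 11, oligodendrocyte markers 9 of 9, Purkinje cell markers 12 of 13 and brainstem markers 10 of 13 positive, and granule neuron markers 0 of 15 (-0.86), at 644 to 4615 CPM in mock and 1132 to 7918 CPM in WT libraries. Of these edgeR called 2 endothelial markers and 1 microglial marker higher, and DESeq2 called 6 astrocyte, 5 endothelial, 5 microglial and 1 brainstem marker higher and 3 granule neuron markers lower. Their part in the mt- values was not tested.

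**Figure D4:**
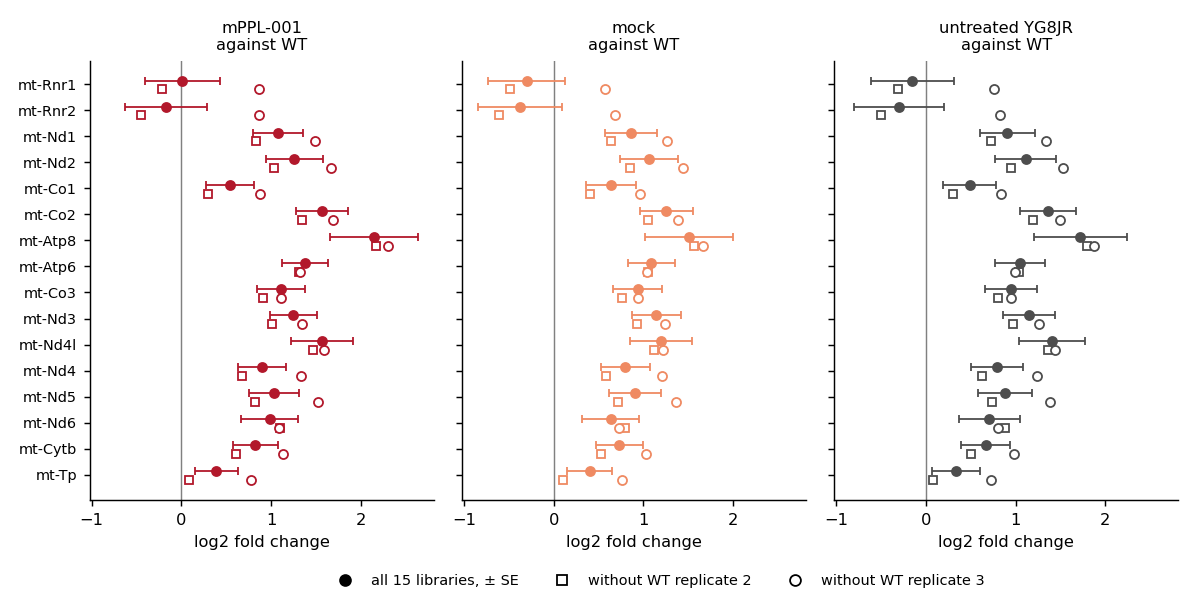
Log2 fold change of the 16 members that passed the low-count filter, for mPPL-001 (left), mock (middle) and untreated YG8JR (right) against WT, in map order. Filled points with ± SE are from all 15 libraries and open symbols from fits without WT replicate 2 (squares) and without WT replicate 3 (circles). The protein genes lie right of 0 in all panels. The rRNAs move from about 0 or below to above 0 when replicate 3 is left out, and lie below 0 when replicate 2 is left out.

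The changes of the mitochondrial rRNAs against WT turned on 1 library. mt-Rnr1 had 1198, 1114 and 1453 CPM in untreated YG8JR libraries, against 654, 864 and 2624 CPM in WT libraries (log2 fold change -0.15, SE 0.46, edgeR adjusted p = 0.841). mt-Rnr2 had 898, 860.2 and 1284 CPM in untreated YG8JR libraries, against 482.5, 671.5 and 2572 CPM in WT libraries (-0.30, SE 0.51, adjusted p = 0.71). The library labelled WT replicate 3 had the highest value of all 15 for both, and without it the changes were 0.76 for mt-Rnr1 and 0.82 for mt-Rnr2, neither of which passed. Without WT replicate 2 the changes were -0.31 for mt-Rnr1 and -0.50 for mt-Rnr2, which did not pass either. Within batch B they were 0.68 for mt-Rnr1 and 0.66 for mt-Rnr2. mPPL-001 replicates 1 and 2 came next, with 1446 and 1713 CPM for mt-Rnr2. The part of rRNA depletion in these values was not tested.

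Per the labels, the edited and mock transplants differed by Cas9 in the electroporation and shared YG8JR donors, guides, irradiation and antibiotics. The libraries differed in other ways too. Y-linked transcripts stood at 222 to 251 CPM in all mPPL-001 libraries but at 1.63 and 1.00 CPM in mock replicates 1 and 4, the mock libraries of batch B. Choroid plexus markers had 0 of 12 positive in mPPL-001 against mock (median -1.67), at 272 to 7869 CPM in mPPL-001 and 391 to 6743 CPM in mock libraries, and Purkinje cell markers had 13 of 13 positive (1.01). No marker was called by edgeR or DESeq2 or had an unadjusted p under 0.05, and the part of these differences in the mt- values was not tested. No member was called by edgeR between mPPL-001 and mock (background 0; 0 members at an unadjusted p under 0.05, background 2.14%; 0 by DESeq2, background 0). mt-Nd1 had 5238.5, 3488, 2935, 3041 and 3623 CPM in mPPL-001 libraries, against 3444, 2709, 3787 and 2501 CPM in mock libraries, with a log2 fold change of 0.21 (SE 0.25, edgeR adjusted p = 0.999). The groups overlapped, and mPPL-001 replicate 1 was highest. Changes of the 13 protein genes ran from -0.10 for mt-Co1 (SE 0.24) to 0.64 for mt-Atp8 (SE 0.41), with a median of 0.20 against 0.04 for all genes, and 0.07 without mPPL-001 replicate 1. In simulated counts for this comparison, 50% of genes changed by 1 and 87% of those changed by 2 were recovered.

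Against untreated YG8JR, which adds conditioning and transplant to the difference, mPPL-001 had a median change of 0.16 over the protein genes (all genes 0.06) and none was called by edgeR (background 0.0320%; 0 at an unadjusted p under 0.05, background 3.35%; 0 by DESeq2, background 0.0880%). The largest was mt-Atp8 at 0.43 (SE 0.44, adjusted p = 0.966). The median was -0.01 without mPPL-001 replicate 1. Mock against untreated YG8JR had a median of -0.01, from -0.22 for mt-Nd4l (SE 0.33) to 0.15 for mt-Co1 (SE 0.28), again with no call by edgeR (background 0.0360%; 0 at an unadjusted p under 0.05, background 1.56%; 0 by DESeq2, background 0.0600%). With standard errors of 0.22 to 0.46 for the protein genes in these 3 comparisons, differences of that size could not be detected. Microglial markers summed to 242 to 367 CPM in mPPL-001, 241 to 383 in mock and 386 to 507 in untreated YG8JR libraries. At an unadjusted p under 0.05, 7 of 11 were lower in mPPL-001 than in untreated YG8JR and 4 of 11 in mock (DESeq2 called 1 and 0). Of other cell types, 1 of 9 oligodendrocyte markers was lower in mPPL-001, and 2 of 12 choroid plexus and 1 of 13 brainstem markers higher in mock. Their part in the mt- values was not tested.

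Ratios within the mitochondrial counts do not depend on library scaling, and 5 were tested in 7 comparisons. None of the 35 passed after adjustment. The nearest was complex IV to complex I, whose mean log2 ratio was 0.46 ± 0.10 in mPPL-001 (n = 5) and 0.95 ± 0.16 in WT (n = 3; SD), a difference of -0.49 with no overlap (two-sided exact permutation test, p = 0.0179, the smallest these group sizes allow, which did not pass after adjustment). It was 0.56 ± 0.17 in untreated YG8JR (n = 3), a difference of -0.40 from WT (exact p = 0.1, also the smallest possible). Mock libraries overlapped both, from 0.22 to 1.27. mt-Co1 accordingly took 49.1%, 51.7%, 52.8%, 49.6% and 48.2% of the protein-gene counts in mPPL-001, 46.5%, 54.9%, 53.1% and 63.1% in mock, 49.8%, 51.1% and 55.2% in untreated YG8JR, and 60.1%, 56.1% and 57.2% in WT libraries. The WT libraries were above all others but mock replicate 4. The ratio of rRNA to protein genes differed by -0.67 between untreated YG8JR and WT (exact p = 0.3), and the ratio of mt-Nd6 to the other complex I genes by -0.35 (exact p = 0.7). mt-Nd6 stood apart in WT replicate 2, the library with the fewest counts, where it made up 1.96% of the protein-gene counts against 0.53% to 1.37% in the other 14 libraries.

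No member of 16 was called between batch A and batch B by edgeR, where 32.9% of all genes were (0 at an unadjusted p under 0.05, where 41.7% of all genes were, and 0 by DESeq2, where 35.7% were). The changes ran from -0.08 for mt-Co3 (SE 0.18) to 0.44 for mt-Rnr2 (SE 0.33). Whole shares averaged 3.49 ± 0.88% in batch A (n = 8) and 2.71 ± 0.68% in batch B (n = 7; SD), a difference of 0.785 points (two-sided exact permutation test, p = 0.0600; 0.395 and p = 0.0483 on the log2 scale). With single libraries left out the difference ran from 0.486 (without mPPL-001 replicate 1) to 0.880 points and its p from 0.0338 to 0.157. The p was under 0.05 without mPPL-001 replicate 3, mock replicate 1 or YG8JR replicate 3, and was highest without WT replicate 2. Within groups, batch A had the higher mean in 4 of 4, by 0.673 points on average (exact permutation within group, p = 0.0759, added after seeing the data). The highest library was in batch A and the 2 lowest, both WT, were in batch B.

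Of the nuclear genes that serve the mitochondrial genome, no list had a member called by edgeR in untreated YG8JR against WT (background 0.144%). The lists for replication, transcription, RNA processing, RNA stability, translation factors, aminoacyl-tRNA synthetases and biogenesis had 100 entries tested. Tfam counts in both the replication and the transcription list. At an unadjusted p under 0.05 there were 10 higher and 19 lower entries, and DESeq2 called 0 higher and 5 lower. Of all genes, 25.3% had such a p, near the share of these lists, and DESeq2 called 8.86%, above it. The 16 genes of mtDNA replication and the nucleoid had a median log2 fold change of -0.25 with 7 positive, and the 10 of mitochondrial transcription -0.09 with 4 positive. Among them Polrmt, the mitochondrial RNA polymerase, had -0.33 (SE 0.12, edgeR adjusted p = 0.141), Mterf3, a transcription-termination family member, -0.52 (SE 0.17, adjusted p = 0.131), and Top3a, a topoisomerase that separates replicated circles, -0.56 (SE 0.15, adjusted p = 0.115). The 20 genes of RNA processing and modification had a median of 0.07 and the 15 of RNA stability, polyadenylation and decay a median of 0.00. Pnpt1, an RNA-degrading exonuclease, had -0.50 (SE 0.18, edgeR adjusted p = 0.141), and Grsf1, a protein of mitochondrial RNA granules, 0.49 (SE 0.21, adjusted p = 0.171). The biogenesis regulators Ppargc1a (0.70, SE 0.24, edgeR adjusted p = 0.137) and Ppargc1b (-0.71, SE 0.20, adjusted p = 0.121) had opposite signs. Nuclear subunits of the complexes were mostly positive, with list medians below that of the mitochondrial protein genes: 35 of 36 for complex I (median 0.39), 4 of 4 for complex II, which has no mitochondrially encoded subunit (0.47), 9 of 9 for complex III (0.37), 13 of 13 for complex IV (0.46) and 13 of 14 measured for complex V (0.37). Of these 76 genes, 12 were higher and 1 lower at an unadjusted p under 0.05, and DESeq2 called 0, both below the 25.3% and 8.86% of all genes. Mitochondrial ribosomal proteins had 67 of 77 positive, with a median of 0.27, where 10 were higher and 1 lower at an unadjusted p under 0.05 and DESeq2 called 2, below the same background shares. In mock against WT the nuclear complex subunits had 34 higher and 2 lower of 76, a share above the 26.1% of all genes at an unadjusted p under 0.05, with 19 of 36 complex I subunits higher; DESeq2 called 4, a share below its 10.6%. In mPPL-001 against WT there were 10 higher and 1 lower of 76 at an unadjusted p under 0.05, and DESeq2 called 0.

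The nuclear copies had fold changes of the same sign as the protein genes in the comparisons with WT. All 12 copies that share 75-base words with a member were positive in untreated YG8JR against WT, with a median log2 fold change of 1.14, and edgeR called none (12 at an unadjusted p under 0.05, background 25.3%; 10 by DESeq2, background 8.86%). In mPPL-001 against WT their median was 1.51 and 4 were called higher, where 0.216% of all genes were, among them Gm28661, the copy of mt-Co2 (1.65, SE 0.31, edgeR adjusted p = 0.0471), and Gm10925, the copy of mt-Atp6 (1.51, SE 0.28, adjusted p = 0.0477). Reads of a copy and of its mitochondrial gene are identical over most of their length, so the values of mt-Co2, mt-Atp6, mt-Co3, mt-Nd3 and mt-Nd4l, both calls included, are uncertain. Whether this holds for mt-Atp8 was not tested, as nuclear sequence outside annotated transcripts was not searched. Over the 15 libraries, the genes outside the set whose log2 CPM, centred on group and batch means, went most closely with the mean of the protein genes were Gm28439 (Pearson r = 0.898), Gm10925 (0.881), Gm13339 (0.865), Gm28437 (0.864) and 9430038I01Rik (0.862). The first 4 are such copies, and the values correlated come from the same libraries, which differed in depth.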

How the data were processed

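Bulk RNA sequencing of 15 cerebellum libraries was analysed from the table of gene counts that the authors deposited, which the values show to be whole, unscaled counts. Per the labels' protocols, ribodepleted RNA with an integrity number above 7.0 was made into stranded paired-end libraries, and STAR and GRCm39 are named in the submitters' processing notes. Not given in the sources used here are the annotation, the counting tool, its strand setting and how it handled multimapping reads. Symbols and transcript sequences came from GENCODE M21 (GRCm38), which matched 55141 of 55488 gene IDs. Lengths, strands and map order of the mt- genes came from its coordinates. Results for some genes, among them a check of the label of WT replicate 3, are not reported here.

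Genes were kept by filterByExpr (minimum count 10, minimum total 15), which left 24990, and scaled by TMM. They were tested with edgeR 4.0.16 (robust quasi-likelihood, R 4.3.3, limma 3.58.1) in a model of group and batch over all 15 libraries, with Benjamini-Hochberg adjustment and a threshold of 0.05. DESeq2 1.42.0, other scalings and filters, a fit without batch, single batches, the groups compared alone, a replicate block and each library left out were alternatives; WT replicate 1 as the sole WT library, and batches compared within group, were added after seeing the data. Shares and ratios were tested by exact permutation over all arrangements of the libraries, and Wilson intervals were computed with scipy 1.17.1. Tests were checked on simulated counts. The members, lists and tests were chosen with earlier results of these data known. The rule for names allowed the members with counts past the filter, up to 4 genes of a list by smallest p, and the 5 genes most correlated with the members. Replicate numbers did not pair the libraries: 11 of 19 same-number pairs had a correlation over 0.1, from -0.596 to 0.737. Of other-number pairs 29 of 64 did, from -0.699 to 0.611. With batch removed as well, 5 of 19 same-number and 28 of 64 other-number pairs did. Every pair of libraries within a group differed beyond sampling noise (chi-square test on counts). Depth was 16847875 to 38760543 counts per library; intervals cover counting error only.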

Additional observations from a re-analysis of the deposited data

Results flagged for a closer look

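Dixon's test, which flags about 1 in 20 by chance, was run on 46 sets of values from the mPPL-001 and mock groups together. It gave 5 flags, in each of which mPPL-001 replicate 1 stood apart from the other 4 libraries of its group. Only the mPPL-001 sets could flag this library, and the 5 flags share a library and are not independent. Its share of counts in mt- genes was 5.59%, where the next of the group was 3.09%. It had 3727 CPM for mt-Nd2 (next 2164), 4594 CPM for mt-Nd5 (next 2967), 23061 CPM for mt-Co1 (next 16281) and 5967 CPM for mt-Cytb (next 3565). Without it the median log2 fold change of the 13 protein genes was 0.07 for mPPL-001 against mock, -0.01 for mPPL-001 against untreated YG8JR and 1.04 for mPPL-001 against WT.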

How the results depend on the processing

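Counts of members called depended on the processing in the comparisons with WT. For mPPL-001 against WT the 2 calls became 1 with RLE scaling, with the stricter filter and with library size from nuclear genes, 5 without a filter and 11 with DESeq2 (2.62% of all genes). They became 0 without a batch term, with only the groups compared, in batch A, in batch B, with WT replicate 1 as the sole WT library (added after seeing the data) and with the replicate block. For untreated YG8JR against WT the count of 0 became 1 without a filter and 10 with DESeq2 (8.86% of all genes). For mock against WT it became 4 without a filter and 11 with DESeq2 (10.6% of all genes). With single libraries left out the count of members ran from 0 to 8, 0 to 10 and 0 to 9 for untreated YG8JR, mPPL-001 and mock against WT. Genes called over the whole table then ran from 0 to 4096, 26 to 1800 and 39 to 4839. For mPPL-001 against WT most of these fits gave 0 members. Only those without the library labelled WT replicate 3 (10) or mock replicate 4 (4) gave more than 2. Shares of all genes called are not given for the other settings, so these counts alone show no change particular to the members. The cause was not tested. The replicate numbers share no stated pairing, and the block changed no other count of members called.

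For untreated YG8JR against WT the sign reversed for mt-Rnr1 (0.68 in batch B, 1.01 with WT replicate 1 alone, -0.42 to 0.76 with libraries left out), mt-Rnr2 (0.66, 1.11, -0.61 to 0.82) and mt-Tp (-0.17 in batch A). It reversed for mt-Co1 in batch A in mPPL-001 against mock (0.044; -0.24 to 0.052 with libraries left out) and mock against untreated YG8JR (-0.012), for mt-Nd4l in mock against untreated YG8JR (-0.51 to 0.017 with libraries left out) and for mt-Co3 between batches (0.30 with the replicate block; -0.15 to 0.059 with libraries left out).

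The difference in share, in percentage points, was -0.0176 (untreated YG8JR), 0.580 (mPPL-001) and 0.0874 (mock) against WT in batch A. In batch B the same differences were 1.28, 1.31 and 1.44. Without rRNA genes the difference from WT was 0.976 for untreated YG8JR (exact p = 0.1), 1.315 for mPPL-001 (exact p = 0.107) and 1.09 for mock (exact p = 0.0286). Between batches it was 0.395 on the log2 scale. With libraries left out it ran from 0.5685 to 1.43, 0.762 to 1.78 and 0.662 to 1.52 for untreated YG8JR, mPPL-001 and mock against WT, from -0.253 to 0.423 for mPPL-001 against mock, -0.160 to 0.516 for mPPL-001 against untreated YG8JR, -0.0242 to 0.233 for mock against untreated YG8JR and 0.486 to 0.880 between batches (p from 0.0338 to 0.157). Genes called over the whole table numbered 36, 58 and 103 for untreated YG8JR, mPPL-001 and mock against WT by edgeR and 2213, 655 and 2648 by DESeq2.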
